A study of Caenorhabditis elegans with 4 samples.

Results

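Bisphenol A (BPA) and NP, read here as nonylphenol, are phenols, whereas DEHP, di(2-ethylhexyl) phthalate, is a diester of phthalic acid without a free phenol group. The mean log2 intensity of the BPA and NP arrays was set against that of the DEHP array, gene by gene, and genes were described where both phenol arrays lay on the same side of DEHP. The comparison used 3 of the 4 arrays of the study, and the array of the unexposed worms is given for reference only. Of 17138 genes measured, 8626 were detected, which means that the DEHP array or both phenol arrays reached an intensity of 129, the pooled median. Both phenols lay on the same side of DEHP for 4009 of them, and 178 genes were at least 2-fold from DEHP on both phenol arrays.

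The samples were whole wild-type C. elegans hermaphrodites, age-synchronized young adults of 3 days, read on 1-colour Affymetrix C. elegans Genome arrays. The BPA, DEHP and NP worms were held for 24 h at 20 °C without food in K-medium, a salt solution, each with its chemical at 1/100 of that chemical's own 24 h LC50 (the concentration lethal to 50% of animals). The compounds were thus matched in exposure time and as a fraction of their toxicity, but not in molar concentration, and no concentration is stated in the labels. The reference array came from worms described as untreated, grown on bacteria on agar, and the labels give no exposure time, food or medium for it during those 24 h. Each compound had 1 array, so there is no replicate error, no interval and no test for any difference below, and every value describes these arrays. The spread between the BPA and NP arrays holds the difference between 2 compounds and was not used as an error.

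The parent phenols are best known as weak ligands of vertebrate oestrogen receptors, while metabolites of DEHP activate a peroxisome proliferator receptor in rodents. In nematodes, foreign compounds are oxidised by cytochromes P450, conjugated by UDP-glucuronosyltransferases and glutathione S-transferases and exported by P-glycoproteins. A young adult hermaphrodite holds stored sperm made before adulthood and a gonad that makes oocytes, and its intestine secretes yolk, lysozymes, lectins and other proteins of defence against microbes.

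All arrays had deposited medians between 109 and 141. Once the medians over all probe sets were made equal, the median detected gene lay 0.14 log2 lower on the BPA array and 0.22 higher on the NP array than on DEHP, and 0.05 higher for the mean of the phenols. Intensities below are after that scaling, and differences are in log2 units, phenol minus DEHP. The yolk genes vit-2 and vit-6, the oocyte gene rme-2 and the muscle gene unc-54 read between 4321 and 31923 on all 4 arrays, and of the marker genes of yolk, oocytes, muscle, intestine, neurons and epidermis none was at the floor of 28.3 on any array. The ratio of the 3′ to the 5′ control probe set of actin, a measure of RNA quality, stood at 1.22 (BPA), 1.37 (DEHP) and 1.88 (NP), with 1.19 in the reference. That of catalase stood at 1.44, 1.82 and 3.38, with 1.63 in the reference. NP was also the highest array for the GAPDH and ubiquitin controls. A dagger (†) marks a gene whose probe set has _s_ or _x_ in its name and can therefore match more than 1 transcript.

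More genes stood high on the DEHP array than low against both phenols. Of the 8626 detected genes, 131 (1.52%) were at least 2-fold lower on both phenol arrays than on DEHP and 47 (0.545%) were at least 2-fold higher. At 4-fold the numbers were 37 (0.429%) and 7 (0.0812%). With each difference centred on the median detected gene, 127 genes (1.47%) were lower and 42 (0.487%) higher at 2-fold. BPA read alone against DEHP was at least 2-fold lower for 2.74% and higher for 2.01% of the genes detected in that pair, and NP was lower for 3.35% and higher for 4.55%, so the balance differed between the phenols. That balance turned with the scaling: centred on the median gene, BPA was lower for 2.1% and higher for 2.81%, and NP was lower for 5.37% and higher for 2.1%. Of the 131 and 47 genes, 113 and 31 passed under each of 4 other scalings. Both differences use the same DEHP array, so an error of that array on a gene moves both phenols to the same side. The threshold has no gap around it: F28H7.3† passed with -1.0004 and -1.67 and C49H3.12 with 1.004 and 1.19, while col-38† (-1.36 and -0.991) and K09H9.8 (1.47 and 0.989) did not pass.

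The unexposed array lay near the phenols for most of these genes. For 85 of the 131 lower genes and 29 of the 47 higher genes, the reference was within 2-fold of both phenol arrays and at least 2-fold from DEHP. Since these genes were chosen for a distance between DEHP and both phenols, a reference near the phenols was nearly bound to lie far from DEHP, and the counts describe only where the reference fell. It was within 2-fold of all 3 exposed arrays for 13 lower and 3 higher genes, and took some other place for 30 and 12. Of all 8626 detected genes, 4.24% had the reference near both phenols and at least 2-fold from DEHP. For 83.6% it was within 2-fold of all 3 exposed arrays, so a reference near both phenols was not particular to the called genes. The reverse, a reference near DEHP and at least 2-fold from both phenols, was found for 3 lower and 3 higher genes. These were Y39B6A.1†, F55G11.2 and sysm-1 among the lower and C06G3.3, pqn-71 and cutl-26† among the higher ones, named after their values were seen. C06G3.3 read 332 in the reference, 1058 with BPA, 269 with DEHP and 715 with NP. Y39B6A.1† read 1286, 321, 2022 and 133 in the same order, and its other probe set read 585, 202, 878 and 86.5.

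**Figure D1:**
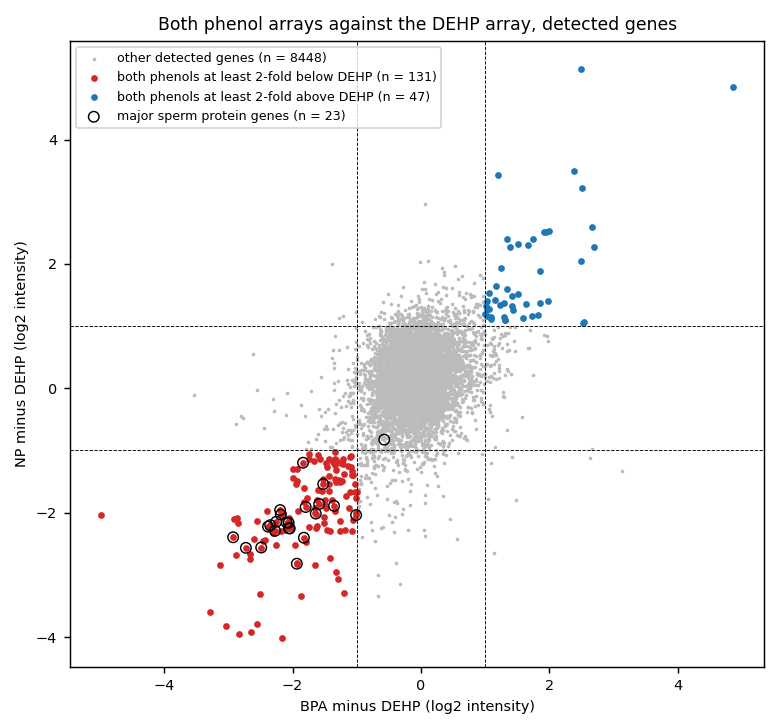
Each point is a detected gene, with the BPA minus DEHP difference on the horizontal and the NP minus DEHP difference on the vertical axis, both in log2 intensity; dashed lines mark 2-fold and each compound has 1 array. The 131 genes in red lie at least 2-fold below DEHP on both phenol arrays, 22 of the 23 circled major sperm protein genes among them, and the 47 in blue lie at least 2-fold above it.

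BPA and NP, which share the phenol group, were not the pair with the fewest genes apart. Over the 3 pairs of compounds, each read on the genes detected in that pair, 11.5% of genes were at least 2-fold apart between BPA and NP, 7.9% between NP and DEHP and 4.75% between BPA and DEHP. With each pair centred on its median gene the shares were 8.94%, 7.47% and 4.91%, in the same order. Set against both other exposed arrays in the same way, NP was at least 2-fold higher for 2.49% of detected genes and lower for 0.998%, and BPA was higher for 0.702% and lower for 0.668%. After centring, the NP shares were 0.677% higher and 2.46% lower and the BPA shares 1.4% and 0.311%, so the direction of the NP excess turned with the scaling. On the higher side, DEHP stood out in the number of genes past 4-fold: 37 (0.429%) were higher on DEHP than on both other arrays, against 7 (0.0806%) for BPA and 16 (0.184%) for NP. After centring these were 33 (0.383%), 11 (0.127%) and 7 (0.0803%). On the lower side, DEHP was past 4-fold for 7 genes (0.0812%), and the compounds are not compared here on that side. These differences between compounds were not tested, since each rests on 1 array.

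The major sperm proteins (MSPs), small proteins that drive the crawling of nematode sperm and signal oocyte maturation, made up the largest group of the genes lower on the phenols. Of 23 MSP genes measured, all were detected, 22 were at least 2-fold lower on both phenol arrays than on DEHP and none was higher. Of all detected genes, 1.52% were lower and 0.545% higher. The median difference of the MSP genes was -2.05 for BPA and -2.16 for NP, against -0.14 and 0.22 over all detected genes. On the DEHP array the 23 genes ranged from 242 to 3557 with a median of 1203. The range was 95.7 to 1127 (median 247) with BPA, 60.9 to 850 (median 219) with NP and 111.9 to 1077 (median 281) in the reference. DEHP was the highest of the 4 arrays for 23 of 23 genes, and the ranges over genes overlapped between arrays.

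Single MSP genes showed how close the phenols were to each other and to the reference. The gene msp-53† read 780 in the reference, 735 with BPA, 3557 with DEHP and 726 with NP, so its phenol values differed from DEHP by -2.27 and -2.29. The gene msp-36† read 468, 362, 2033 and 345 in the same order. For msp-76† the values were 269, 195, 1294 and 219. For msp-45† they were 281, 150, 1142 and 217, and for msp-64† they were 141, 113, 431 and 60.9. DEHP alone was high in each of these genes. The smallest difference was that of msp-74†, with 111.9, 163, 242 and 136, which did not pass 2-fold. Against the reference, 23 of 23 MSP genes were within 2-fold with BPA and 21 of 23 with NP, while 21 of 23 were at least 2-fold higher with DEHP.

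All 23 MSP probe sets are of the _x_ type, and the genes of this family are nearly identical, so the count is not one of 23 separate measurements. The related MSP-domain genes msd-2† (138, 123, 559 and 114 for reference, BPA, DEHP and NP) and msd-4† (124, 113, 314 and 131) were also past 2-fold, named after their values were seen. Of the 11 other sperm genes detected, 5 lay below DEHP on both phenol arrays and none above, where 22.6% and 23.8% of all detected genes did. However, 4 of the 11 were detected through the DEHP array only, so the filter itself favoured the lower side. Over all 50 on the array, detected or not, 20 lay below and 1 above, against 3641 and 3510 of all 17138 genes. Of the detected genes, nspd-4† (180 with DEHP against 57.5 and 44.7 with BPA and NP) and nspd-2† (169 against 44 and 58.1) were past 2-fold, and nspd-1† (168 against 51.0 and 84.8) was past it on BPA only. The median of the detected genes was -0.14, smaller in size than that of the MSP genes. The sperm phosphatase gene gsp-3† read 107 with DEHP, 42.1 with NP and 28.3, the floor, with BPA, all under the detection level. The summed level of the 4 sperm marker genes gsp-3, gsp-4, spe-9 and spe-11 was 153 in the reference, 144 with BPA, 245 with DEHP and 156 with NP, with spe-11 at the floor on all arrays. In whole worms, fewer cells of a type and less RNA per cell cannot be told apart. The summed level of 5 oocyte genes was 38651 with BPA, 41632 with DEHP and 43067 with NP, against 30585 in the reference.

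**Figure D2:**
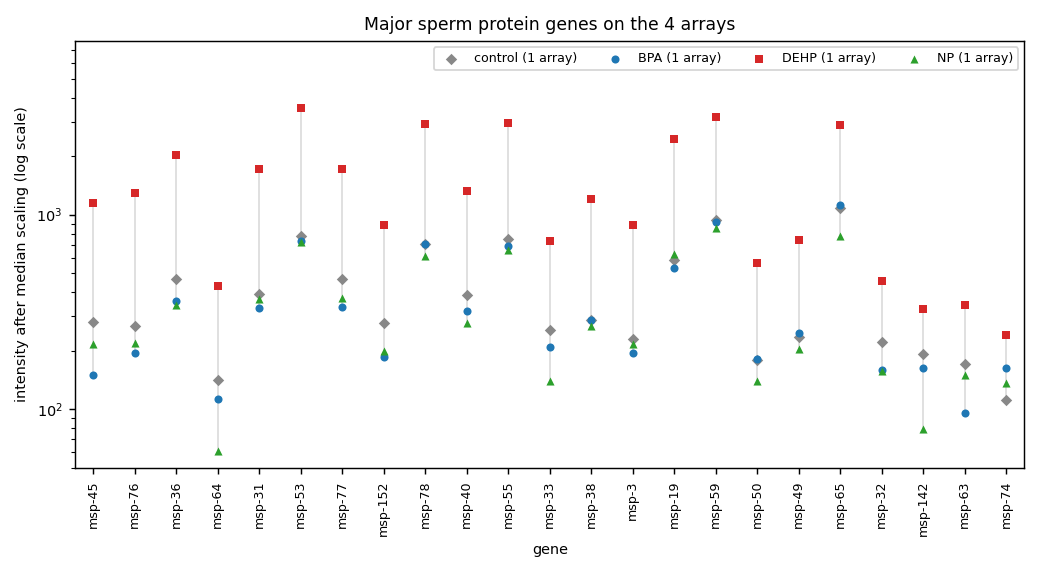
Intensity after median scaling, on a log axis, of the 23 major sperm protein genes on the reference (control), BPA, DEHP and NP arrays, 1 array each, ordered by the mean difference of the phenols from DEHP. The DEHP squares lie above the other 3 arrays for every gene. BPA lies within 2-fold of the reference for 23 genes and NP for 21.

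Lysozyme genes were the next group with low phenol values, while the other lists of genes of defence against microbes were mixed. Of 8 detected lysozyme genes, 4 were at least 2-fold lower on both phenol arrays and 1 was higher, against 1.52% and 0.545% of all detected genes. The lysozyme medians were -1.04 for BPA and -1.31 for NP. The gene lys-7†, a protist-type lysozyme of the intestine, read 2749 in the reference, 4116 with BPA, 14313 with DEHP and 2588 with NP. Its relative lys-2† read 1347, 1312, 5831 and 1453, and lys-1 read 2170, 2460, 6194 and 2825. Both phenols stayed near the reference in these 3 genes, with BPA somewhat above it for lys-7. The invertebrate-type gene ilys-5† differed: it read 1678 in the reference, 4660 with BPA, 10973 with DEHP and 3905 with NP, so both phenols lay between the reference and DEHP. Its other 2 probe sets gave BPA differences of -1.29 and -1.11 and NP differences of -1.50 and -1.57. The exception in direction was ilys-3, highest in the reference at 841 and lowest with DEHP at 75.4, with 201 for BPA and 189 for NP. Over all 16 lysozyme genes on the array, detected or not, the median difference was -0.08. Without _s_ and _x_ probe sets the median of the detected lysozyme genes was -0.13, since lys-2, lys-4, lys-7 and ilys-5 are read by such sets.

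The infection response list, irg genes and dod genes found downstream of the FOXO factor DAF-16, held 4 lower and 0 higher members among 13 detected. Of all detected genes, 1.52% were called lower and 0.545% higher. On this list 3 genes, irg-8 among them, were detected through the DEHP array only and 0 through the phenols only, so the filter favoured the lower side. The gene irg-8 showed the widest gap, with 361 in the reference, 193 with BPA, 1598 with DEHP and 112.3 with NP. The gene dod-22 read 204, 264, 820 and 173 and dod-19† read 1485, 1316, 3998 and 1287. The values of irg-7† were 1661, 1291, 3229 and 1452. DEHP was highest in all 4 genes. The phenols lay within 2-fold of the reference except for NP in irg-8. The other 9 members were mixed: dod-24† read 827 with BPA, 4509 with DEHP and 2899 with NP, and irg-4 read 241, 223 and 558. The list's median was -0.46 for BPA and -0.03 for NP.

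C-type lectins, secreted sugar-binding proteins, went both ways. Of 51 detected, 4 were at least 2-fold lower and 5 higher on both phenol arrays, where 1.52% and 0.545% of all detected genes were. The gene clec-41† had 455 in the reference, 595 with BPA, 2949 with DEHP and 585 with NP, and clec-67 had 576, 341, 912 and 138. In the other direction, clec-52 had 434 in the reference, 242 with BPA, 38.3 with DEHP and 232 with NP, and clec-82 had 250, 173, 43.3 and 249. The brighter clec-5† had 957, 873, 389 and 1220. DEHP thus stood at the top for some lectins and at the bottom for others. The phenols were within 2-fold of the reference for each of these genes except clec-67, where NP was lower. Of the caenacin and epidermal nlp peptide genes, also counted here as defence genes, 10 were detected, with 0 lower and 1, nlp-26, higher.

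**Figure D3:**
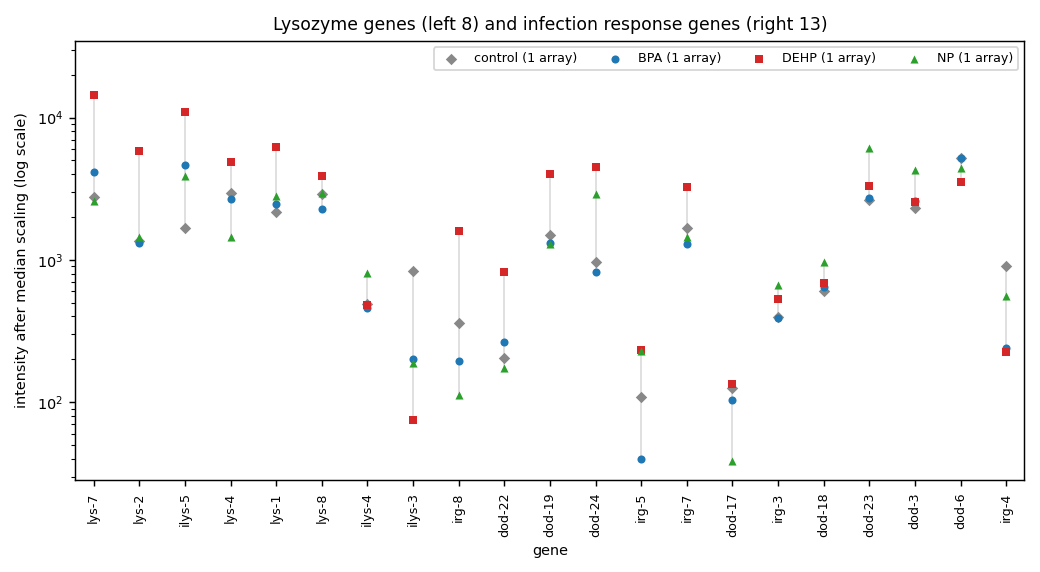
Intensity after median scaling, on a log axis, of the 8 detected lysozyme genes and 13 detected infection response genes on the 4 arrays, 1 array each. DEHP is highest of the exposed arrays for 6 lysozyme and 7 infection response genes. It is the lowest of them for ilys-3, irg-4, dod-3 and dod-6.

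Calls among detoxification genes were few in number, and those of the P450 and glucuronosyltransferase families were all lower on the phenols. Of all detected genes, 1.52% were called lower and 0.545% higher. Of 27 detected P450 genes, 3 were lower and 0 higher. They were cyp-35A2, which foreign compounds induce in this species, with 304 in the reference, 234 with BPA, 897 with DEHP and 320 with NP, cyp-13A5 (511, 580, 1449 and 580) and the dim cyp-13A2 (80.2, 75.9, 167 and 69.9). The phenols lay within 2-fold of the reference in all 3. Of 25 UDP-glucuronosyltransferase genes, 4 were lower: ugt-62 (325, 322, 868 and 299), ugt-44 (586, 602, 1629 and 613), ugt-47 (126, 127, 318 and 112.04) and ugt-22 (432, 273, 703 and 311). The medians of the lists, -0.33 and 0.13 for BPA and NP in the P450 list and -0.16 and -0.18 in the other, lay closer to those of all detected genes than the lysozyme medians did. Glutathione S-transferases held 1 lower member, gst-26 (411, 295, 636 and 200), and 1 higher, the kappa-class gstk-2† (635, 318, 143 and 385), among 23. The P-glycoprotein gene pgp-1† read 120, 152, 559 and 55.3 and was the only called member of 10 transporters. Detection rested on the DEHP array only for 4 P450, 5 glucuronosyltransferase and 4 transporter genes, and on the phenols only for 1, 1 and 0. Over all 8626 detected genes these numbers were 587 and 188. The filter thus favoured the lower side, and cyp-13A2, ugt-47 and pgp-1 were detected through DEHP only. No short-chain dehydrogenase (22 detected) or flavin monooxygenase gene (3 detected) was called.

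Many called genes were under the detection level on their dim side, so that the size of the difference is uncertain. At least 1 phenol array was under 129 for 59 of the 131 lower genes, and DEHP was for 30 of the 47 higher genes. Those genes were detected through their bright side only, as were 587 (DEHP) and 188 (phenols) of all 8626 detected genes. Among other genes lower on the phenols, spig-20 read 73.5 in the reference, 106 with BPA, 1027 with DEHP and 84.9 with NP. The gene T13F3.6 read 118.5, 247, 1447 and 105, and its other probe set had differences of -2.59 and -3.85. T05E12.6† read 384, 253, 1807 and 117, and its other probe set had -1.94 and -3.85. The folate transporter family gene folt-2† read 283, 459, 2067 and 128. C50F7.5 read 375, 419, 2392 and 243, while its other probe sets were at or near the floor on all arrays. B0024.4, which lies within 20 kb of lys-1 and lys-2, read 305, 122, 882 and 196. For F01D5.2, F27C1.1 and the aspartic protease gene asp-17, both phenols and the reference were at the floor, and DEHP was at least 6.31-fold, 5.48-fold and 5.40-fold higher.

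Cuticle collagens, the structural proteins of the worm's surface, held 5 lower and 1 higher member among 76 detected, against 1.52% and 0.545% of all detected genes, with medians of -0.17 for BPA and -0.16 for NP. The gene col-80 read 1995 in the reference, 1334 with BPA, 5208 with DEHP and 905 with NP. The very bright col-124† read 7997, 9856, 27556 and 7257, and col-101† read 102, 511, 1941 and 276. The higher member was col-130† (434, 477, 135 and 304). Metabolic and signalling genes gave single calls. The acyl-CoA dehydrogenase gene acdh-1 read 4705, 5450, 10938 and 2734 in the same order, and the enoyl-CoA hydratase family gene ech-9 read 115, 122, 257 and 52.6; these were the only 2 of 30 fatty acid oxidation genes called. The insulin-like peptide gene ins-7 (80.4, 102, 389 and 158), the nuclear hormone receptor gene nhr-114 (186, 182, 574 and 80.4), the only one called of 78 receptors, and the intermediate filament gene ifa-3 (102, 70.8, 266 and 68) were also lower on both phenols. So were the aspartic protease gene asp-13† (1578, 1913, 4629 and 1669), cdr-2, of a family named for its cadmium response (741, 575, 1449 and 710), and the F-box gene fbxa-98 (103.9, 77.2, 180 and 82). Of the 5 yolk protein genes none passed 2-fold on both phenols, but vit-1 read 653, 658, 2222 and 1215, while the summed level of the 5 was 68168, 81592, 81369 and 111614.

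The genes higher on the phenols were led by F42A10.7, with 1442 in the reference, 1105 with BPA, 38 with DEHP and 1088 with NP. Its differences from DEHP were 4.86 and 4.84, and only its DEHP value was low. Of 8 detected small heat shock protein genes, 2 were at least 2-fold higher on both phenols and none lower, against 0.545% and 1.52% of all detected genes. By any amount, 3 lay above DEHP on both phenols and 3 below, and hsp-17 just missed the lower call at -0.999 and -0.972. The gene hsp-12.6, which in C. elegans is induced by DAF-16, read 1265 in the reference, 424 with BPA, 75.6 with DEHP and 2650 with NP. Its neighbour hsp-12.3 read 1124, 2020, 710 and 3557. NP was above and DEHP below the reference for both, whereas BPA was below it for hsp-12.6 and above it for hsp-12.3. Ferritin stores iron, and its gene ftn-1† read 1295, 2197, 689 and 3409, with DEHP again lowest and NP highest.

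Further bright members were the saposin-like gene spp-31 (891 in the reference, 1082 with BPA, 297 with DEHP and 1105 with NP), far-7, of the family that binds fatty acids and retinol (2930, 2179, 834 and 4021), F43C11.7 (2795, 1529, 606 and 3193), the linker histone-like gene hil-1 (1325, 1076, 515 and 1494) and sdz-24 (1623, 911, 338 and 805). In these 5 genes the reference was at least 2-fold above DEHP, as both phenols were. For cpr-2, a cysteine protease of the cathepsin B kind, the values were 1412, 413, 107 and 611, with both phenols between the reference and DEHP. The same held for the hedgehog-related gene grd-10 (834, 394, 68.7 and 142). The lysosomal lipase-like gene lipl-1 read 191, 313, 55.9 and 231. The peptide genes nlp-26 (574, 646, 111 and 233) and nlp-39 (206, 139, 60.6 and 653) were past 2-fold, each with more than 2-fold between BPA and NP. DEHP was at the floor for spp-27, whose dimmer phenol array was at least 5.21-fold higher, and for the hedgehog-related grl-6, where it was at least 4.84-fold higher.

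**Figure D4:**
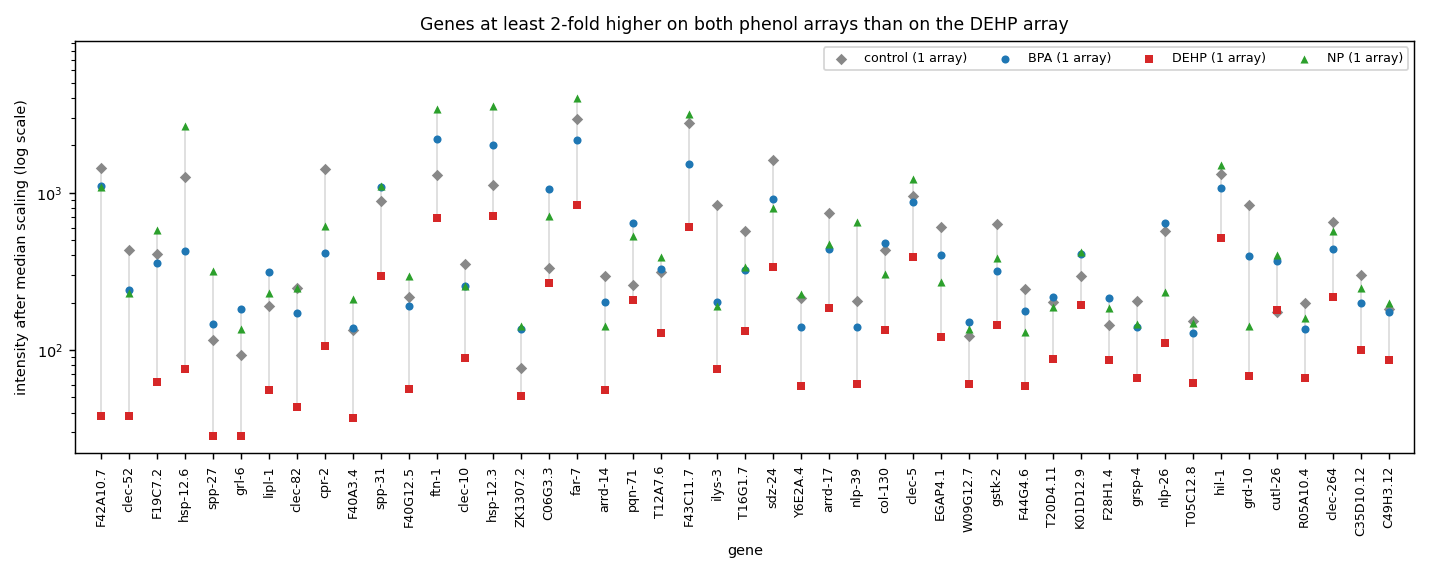
Intensity after median scaling, on a log axis, of the 47 genes at least 2-fold higher on both phenol arrays than on the DEHP array, ordered by the smaller of the phenol differences, 1 array per condition. The reference (control) lies nearer the phenols than DEHP for most genes, and DEHP is under the detection level of 129 for 30 of them.

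Most neuropeptide genes lay above DEHP on both phenol arrays, by small amounts. They encode FMRFamide-like (flp) and other (nlp) peptides that neurons release. Of 54 detected, 43 lay higher on both phenol arrays than on DEHP and 1, nlp-81, lay lower on both, where 23.8% and 22.6% of all detected genes did; only nlp-39 passed 2-fold. Their median difference was 0.38 for BPA and 0.43 for NP. The median level was 639 in the reference, 500.2 with BPA, 363 with DEHP and 499.7 with NP, and DEHP was the lowest of the 4 arrays for 42 of 54 genes. The gene nlp-1 read 486, 315, 158 and 289, flp-8 read 836, 581, 351 and 535, and nlp-3 read 735, 635, 356 and 593, named after their values were seen. Of 22 detected synaptic genes 7 were higher on both phenols and 2 lower, with medians of 0.38 for BPA and 0.13 for NP. For the other 13 the phenols lay on opposite sides of DEHP. The summed level of the 22 was 21025 in the reference, 19398 with BPA, 16956 with DEHP and 19262 with NP, so the next genes show wider gaps than the list. For rab-3†, a GTPase of synaptic vesicles, the values were 1117, 1029, 605 and 955. The summed level of the 5 neuronal marker genes, with rab-3 among them, was 2397 in the reference, 2176 with BPA, 1137 with DEHP and 1654 with NP, and none was at the floor. The NP difference from DEHP was 0.66 for rab-3, 0.56 for snt-1 and 0.70 for unc-17, but -0.10 for eat-4 and 0.11 for unc-47. The sum of the pharyngeal myosin genes myo-1 and myo-2 was 4957, 3979, 1706 and 1856, so there NP lay with DEHP. Fewer neurons and less RNA per neuron cannot be told apart here.

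Cytosolic ribosomal protein genes lay above DEHP on both phenol arrays for 48 of 74 detected genes and below it for none, against 23.8% and 22.6% of all detected genes, but their median was 0.04 for BPA and 0.45 for NP, and NP was the highest of the 4 arrays for 73 of them. Their median for the mean of the phenols was 0.25, but 0.04 after quantile normalization. Mitochondrial ribosomal protein genes (-0.07 and 0.70, 56 detected), histones (-0.03 and 0.46, 22 detected), the proteasome (-0.18 and 0.38, 33 detected), cell cycle genes (-0.24 and 0.34, 33 detected) and oocyte genes (-0.23 and 0.25, 34 detected) had medians on opposite sides of 0 for BPA and NP, as all detected genes did (-0.14 and 0.22), and none held a called gene. The respiratory chain had 0.03 and 0.30 over 39 genes, the vacuolar proton pump 0.06 and 0.03 over 18, and muscle genes 0.13 and -0.09 over 42, also without a called gene. The NP minus DEHP difference ran with gene span, the length of a gene with its introns, from a median of 0.46 in the shortest of 5 equal groups to 0.01 in the longest, whereas BPA minus DEHP went from -0.14 to -0.09. Ribosomal protein genes had a median span of 755 bp, neuropeptide genes 1272 bp and MSP genes 384 bp, against 2589 bp for all detected genes, and the part of span in these medians was not tested.

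**Figure D5:**
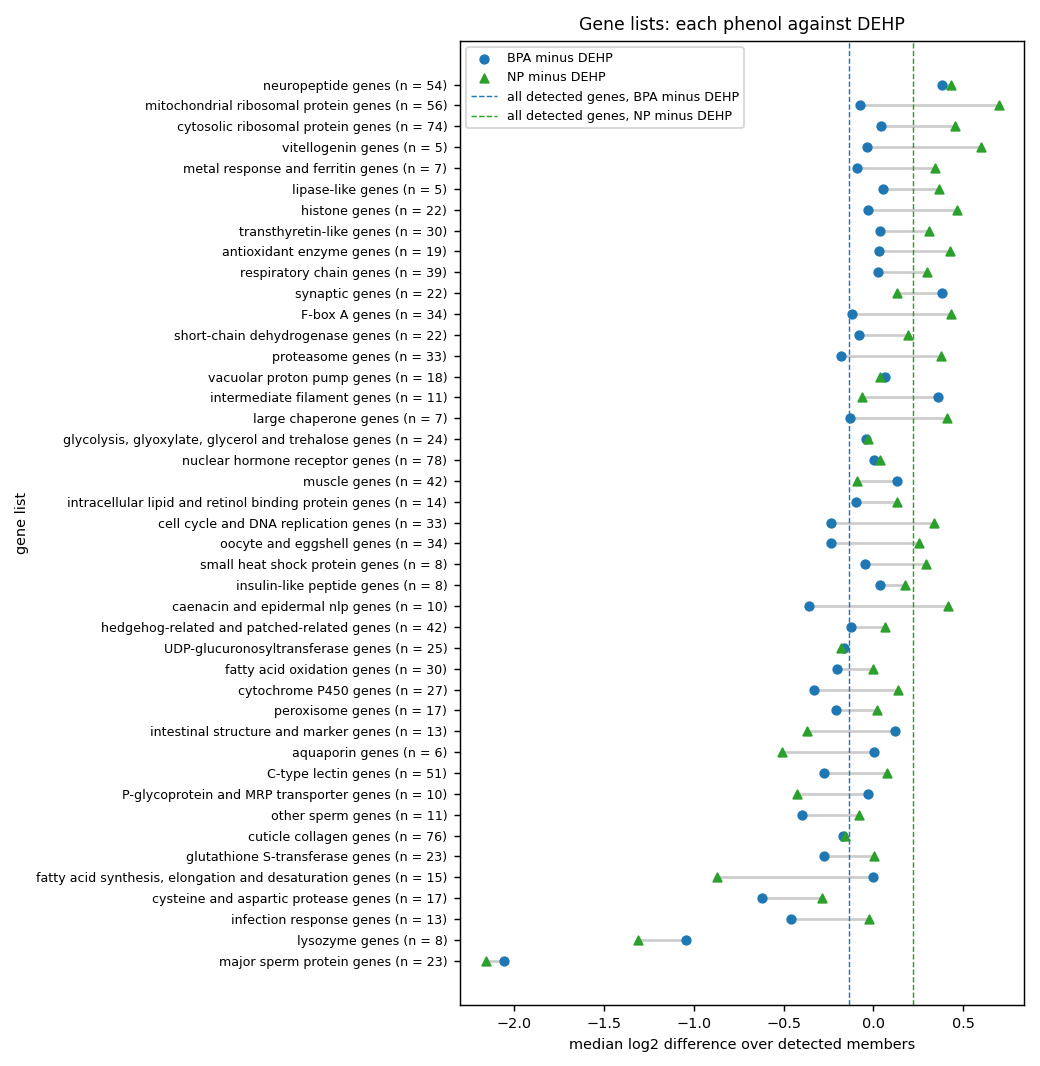
Median log2 difference of BPA (circles) and NP (triangles) from DEHP over the detected members of each gene list with at least 5 of them, 1 array per compound; dashed lines give the median of all detected genes. Of 43 lists, 12 have each compound left of its own line and 13 right of it. Both points lie left of both lines for 5 lists (major sperm protein, lysozyme, protease, collagen and glucuronosyltransferase genes) and right of both for 1, the neuropeptide genes.

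Few genes had DEHP between the phenols and at least 2-fold from both. For 7 detected genes (0.0812%) BPA was at least 2-fold above and NP at least 2-fold below DEHP, and for 4 (0.0464%) the order was the reverse. The phenols lay on opposite sides of DEHP, by any amount, for 53.5% of detected genes. The median detected gene itself lay at -0.14 for BPA and 0.22 for NP after this scaling, so that share holds the offset between the arrays. The acyl-CoA synthetase gene acs-2, which serves fatty acid oxidation in fasting worms, read 301 in the reference, 3943 with BPA, 637 with DEHP and 292 with NP. The hydroxyacyl-CoA dehydrogenase gene hacd-1 read 590, 4365, 1981 and 314, and the aquaporin gene aqp-1 read 842, 3489, 1251 and 360. In the opposite order, the retinol binding protein gene far-3† read 120, 154, 357 and 798. Genes of fatty acid synthesis split another way, with BPA near DEHP (median -0.001) and NP below it (-0.87) over 15 detected genes and no called member. The elongase gene elo-5† read 1149, 4941, 6175 and 694, and elo-2 read 1344, 2661, 3624 and 812, both named after their values were seen.

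The called genes shared features that were not used to choose them. Of the 131 lower genes 51 had another lower gene within 20 kb, against 5.03% of all detected genes, and of the 47 higher genes 6 had a higher neighbour, against 2.07%. Runs of related genes were among them, namely 9 neighbour pairs of MSP genes, the 4 genes F01D5.1†, F01D5.2, F01D5.3 and F01D5.5, lys-1 with lys-2†, cyp-13A2 with cyp-13A5, and hsp-12.3 with hsp-12.6. F01D5.5 read 526 in the reference, 472 with BPA, 1672 with DEHP and 471 with NP. Related neighbours can share sequence, so such runs are not independent readings. Chromosome IV held 32.8% of lower and 34.04% of higher genes and chromosome V 27.5% and 31.9%, against 16.6% and 17.3% of detected genes, whereas chromosome I held 2.29% and 4.26% against 17.6%. Called genes were short in both directions, with a median span of 1440 bp for lower and 1424 bp for higher genes. Probe sets of the _s_ or _x_ type read 48.1% of lower genes, 37.6% of those outside the MSP family, 17.02% of higher genes and 39.0% of all detected genes. All 15 other detected probe sets of lower genes lay on the same side of DEHP for both phenols, 10 of them past 2-fold, as did the 1 of a higher gene. Sets under the detection level were not counted, such as those of C50F7.5, at or near the floor on all arrays.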

How the data were processed

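Per the labels, RNA of whole worms was purified with RNeasy kits and biotin-labelled. Although 1 protocol field speaks of fibroblast cultures, all other labels say worm, and worm RNA was assumed. For each array the authors deposited a linear intensity for 22625 probe sets. The authors' scaling shows in a mean of 495 to 496 on each array without the lowest and highest 2%; the labels name no software or summary method. With 1 array per condition there is no replicate error.

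The 77 AFFX control probe sets were left out. Log2 intensities were shifted to a common median, by -0.12 (BPA), 0.02 (DEHP) and 0.24 (NP), and floored at the pooled 25th percentile, 28.3. Of 22548 probe sets, 20766 had 1 gene, 887 several and 895 none, and only the first kind was used. The brightest probe set over the exposed arrays stood for each of 17138 genes. Gene positions came from the WBcel235 RefSeq table; the authors' build is not given here, so no coordinates are printed.

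A gene was called at 2-fold on both phenol arrays. Named genes were up to 15 per direction with the largest smaller difference (bright side at or above 613, above the floor, called under 4 other scalings; only 10 higher genes qualified), up to 4 called members per list, 5 per order where DEHP lay between the phenols, and up to 5 per direction at the floor. The 44 gene lists and the comparison were chosen with earlier results of these data known. The procedure was tested on simulated data. Python 3.11.15, pandas 2.3.3 and statsmodels 0.14.6 were used.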

Additional observations from a re-analysis of the deposited data

Results flagged for a closer look

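For 10 genes named by rule, BPA and NP lay on opposite sides of DEHP, and this difference between the phenols was not tested, since each has 1 array. BPA was above and NP below DEHP for F46C5.1† (3.13 and -1.33 in log2), acs-2 (2.63 and -1.12), aqp-1 (1.48 and -1.80), pgp-14† (1.42 and -1.11) and hacd-1 (1.14 and -2.66). The other probe set of acs-2 read 1.45 and -1.003, and that of pgp-14 read 0.41 and -0.75. NP was above and BPA below DEHP for far-3† (-1.22 for BPA and 1.16 for NP), F59C6.16 (-1.01 and 1.23), F44G4.3 (-0.919 and 1.07), R06C7.2 (-0.874 and 0.925) and Y42H9AR.4 (-0.814 and 0.867). For srlf-3 both phenols were at least 2-fold under the reference and DEHP was at least 2-fold over it; its mean difference was -2.99, this too was not tested, and its BPA value lay at the floor, so it is a bound.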

How the results depend on the processing

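Quantile normalization, values as deposited, loess, centring on the median gene, no floor and averaged probe sets kept both counts of called genes within 1.5 times the 47 higher and 131 lower. Without a filter on dim genes 134 were higher and 226 lower, and with the filter at the 75th percentile 10 and 70. Leaving out the NP array, so that BPA alone was read against DEHP, gave 178 and 243, and leaving out the BPA array gave 404 and 298; these hold by construction more genes, as 1 condition falls away. Without _s_ and _x_ probe sets 75 were lower, over fewer genes tested. The MSP median moved by less than the SD of its BPA and NP values in each setting that could be run, but no MSP gene remained without _x_ probe sets. The lysozyme median moved from -1.27 to -0.083 without the dim filter, -1.04 without NP and -0.13 without _s_ and _x_ probe sets. The infection response median moved from -1.098 to -0.50 without the dim filter, to -0.46 without NP and to -0.026 without BPA; the cause was not tested. The neuropeptide median stayed between 0.31 and 0.43 in all settings. Over the gene lists 416 values moved by less than the SD of the BPA and NP values, which is between compounds, and 65 by more, and over the 81 named genes 769 and 63, with no called gene reversed. No paired analysis was possible because each condition has 1 array and the groups share a single replicate number.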
